A study of Homo sapiens with 6 samples.

Results

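The serpins are a family of proteins that mostly block serine proteases. The study sequenced RNA of 6 cultures of the human prostate cancer line DU-145 that stably carried a tetracycline-inducible hairpin vector labelled tet-MUCshRNA. The 3 DOX-negative cultures received vehicle and the 3 DOX-positive cultures received doxycycline (DOX) for 7 days, and all 6 were then given 10 ng/ml interferon-gamma (IFN-gamma) over 24 hours. The labels do not say whether the line was 1 clone, and neither unstimulated cells nor a control hairpin under DOX were analysed here. Each comparison below therefore sets hairpin induction together with DOX against vehicle, within IFN-gamma-treated cells. Members were the rows of the count table whose symbol is SERPIN followed by a clade letter from A to I and a number, with SERPINH1, a collagen chaperone, left out. This gave 34 genes of 60662, of which 13 belong to clade B and 21 to other clades. At least 10 reads in 3 libraries were found for 17 of the 34, and 17 entered the test.

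A serpin presents a flexible reactive centre loop as bait. When the protease cuts the loop, the serpin changes shape and traps the enzyme in an inactive complex, which cell-surface receptors of the LDL receptor family can clear. Most clades are secreted and act in plasma on coagulation, fibrinolysis, complement and neutrophil proteases, with the liver as a main source, whereas clade B serpins lack a classical signal peptide and act mostly inside cells, on granzymes, cathepsins and leukocyte elastase. A few members, such as maspin (SERPINB5) and pigment epithelium-derived factor (SERPINF1), are not known to inhibit proteases.

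Libraries held between 87739734 and 150921436 reads, and the labels give no batch or date. MUC1, the mucin gene that the series title names, read between 20.4 and 22.2 CPM (reads scaled to a common library size by the TMM method) in DOX-negative and between 1.31 and 1.53 CPM in DOX-positive libraries, in the direction of the labels. All 5 epithelial markers (KRT8, KRT18, KRT19, EPCAM and CDH1) were above 1 CPM, and their summed level was between 813 and 863 CPM in DOX-negative and between 2261 and 2350 CPM in DOX-positive libraries. Summed markers were between 1.20 and 1.33 CPM in DOX-negative and 0.360 and 0.464 CPM in DOX-positive libraries for leukocytes (5 genes, CD3E at 0). They were between 6.05 and 7.13 CPM and 4.64 and 4.95 CPM for fibroblasts (4 genes, LUM at 0), 0.312 and 0.436 CPM and 0.303 and 0.360 CPM for endothelium (3 genes, none at 0 in all libraries), and 0.131 and 0.339 CPM and 0.101 and 0.125 CPM for hepatocytes (3 genes, none at 0 in all libraries). CD14 made up most of the leukocyte sum (0.965 to 1.08 CPM in DOX-negative and 0.249 to 0.323 CPM in DOX-positive libraries). COL1A1 made up most of the fibroblast sum (5.97 to 7.07 CPM and 4.45 to 4.88 CPM). COL3A1 went the other way, with 2 to 5 reads in DOX-negative and 10 to 14 reads in DOX-positive libraries. The part of these shifts in the serpin values was not tested. The RNA came from whole cultures, so fewer cells expressing a gene and less RNA per cell cannot be told apart. Replicates are triplicate cultures by the labels, which name no separate day or passage, and p-values measure only the spread among them.

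In DOX-positive cells 6 serpins rose and 7 fell out of the 17 tested, at an adjusted p under 0.05 in the quasi-likelihood test of edgeR. The rises were in SERPINB7 (11.2-fold), SERPIND1 (2.58-fold), SERPINB5 (1.75-fold), SERPINB1 (1.75-fold), SERPINB6 (1.43-fold) and SERPINE2 (1.20-fold). The falls were in SERPINA10 (4.75-fold), SERPINF2 (3.73-fold), SERPINE3 (2.79-fold), SERPING1 (2.67-fold), SERPINB9 (1.57-fold), SERPINF1 (1.55-fold) and SERPINA1 (1.21-fold). SERPINB8, SERPINC1 and SERPINI1 were among the 4 that did not pass. Among all 24695 genes tested, 56.5% were called, 27.6% as higher and 28.9% as lower, and the 3 values of each group did not overlap for 62.4%. Against that background 13 of 17 serpins were called and 13 of 17 had groups that did not overlap. A call of at least 2-fold was made for 6 of the 17 and for 12.9% of all genes tested. The median log2 fold change was -0.03 over the 17 serpins and -0.04 over all genes tested. With libraries scaled by size alone the median of all genes was -0.18, the split of all calls 4691 higher and 9576 lower, and that of the serpins 6 and 9. With upper-quartile scaling the splits were 5926 and 8051 for all genes and 6 and 9 for the serpins. The serpin median was 0.17 with at least 1 CPM required in 3 libraries, and with 1 library left out it lay between -0.17 (without DOX-positive replicate 3) and -0.02 (without DOX-negative replicate 1). These counts cover only the members that passed the filter on low counts, and SERPINF2 passed it through the DOX-negative libraries alone, so its difference was partly set by the filter.

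**Figure D1:**
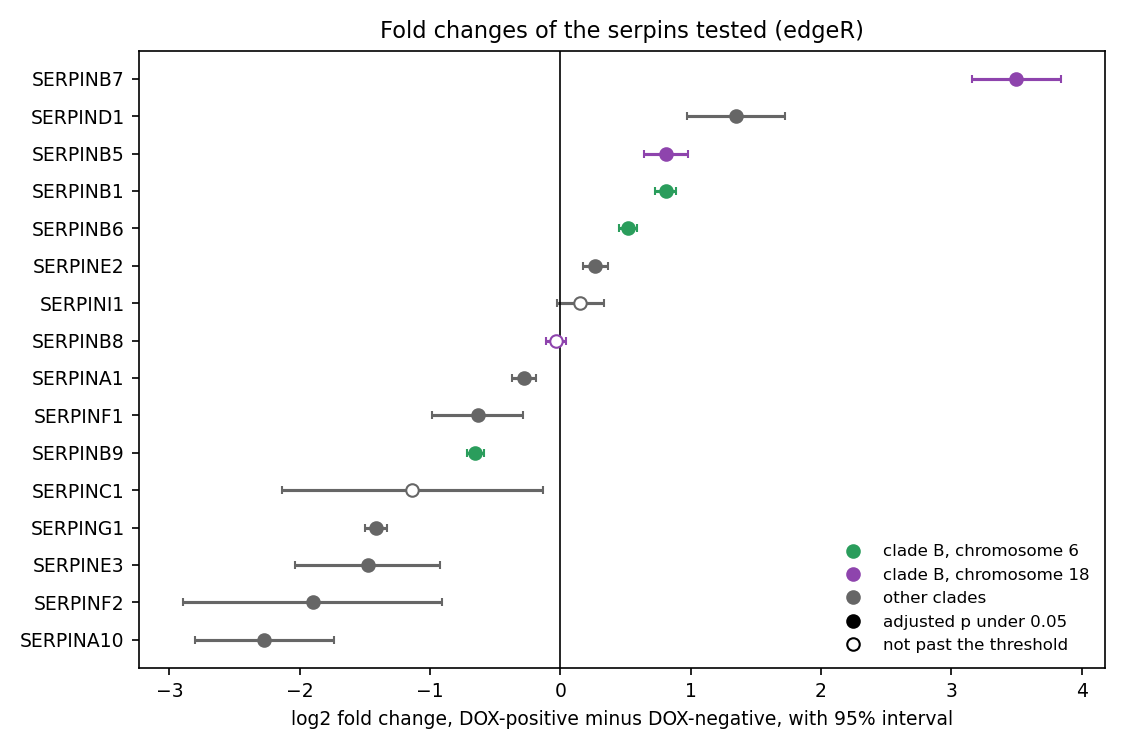
Log2 fold change of 16 of the 17 serpins tested, DOX-positive minus DOX-negative, with its 95% interval from the edgeR fit (not adjusted for multiple tests). Green and purple points are clade B serpins on chromosomes 6 and 18, grey points are other clades, and open points did not pass the adjusted threshold. SERPINB7 stands at 3.50 and SERPINA10 at -2.27, the ends of the range.

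Calls were also counted by clade. For comparison, 27.6% of all genes tested were called higher and 28.9% lower, and their median log2 fold change was -0.04. Of the 6 clade B members tested, 4 rose and 1 fell (median log2 fold change 0.66). Of the 11 tested members of other clades, 2 rose and 6 fell (median -0.63). Within clade B, the 3 genes on chromosome 6 gave 2 rises and 1 fall (median 0.52), and the 3 tested of the 10 on chromosome 18 gave 2 rises and 0 falls (median 0.81). These medians describe few genes, and the difference between the sets was not tested. With at least 1 CPM required in 3 libraries, the other clades kept 6 tested genes with 2 rises and 3 falls, and their median was -0.10. That median was -1.02 without DOX-positive replicate 3 and -0.98 without DOX-negative replicate 3.

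Divided by the deposited gene length (RPKM, CPM per kilobase), the summed serpin level was between 117.5 and 125.4 in DOX-negative and between 110.8 and 116.2 RPKM in DOX-positive libraries. With the TMM scaling, the only one used for this sum, it was lower in every DOX-positive library, by a small margin. Clade B made up 47.4% ± 0.371 of that sum in DOX-negative and 67.6% ± 0.599 in DOX-positive cells (SD, n = 3 each). SERPING1 alone went from 32.5% ± 0.238 to 13.2% ± 0.487, and SERPINB1 from 21.3% ± 0.203 to 40.2% ± 0.772.

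**Figure D2:**
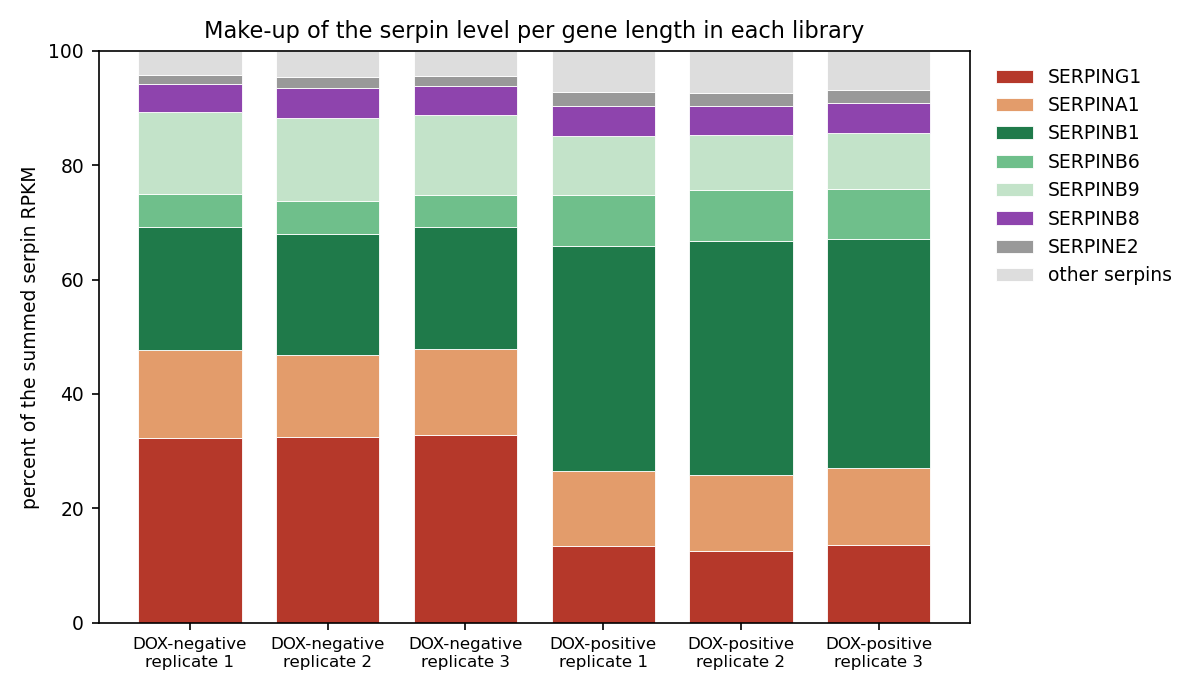
Share of each serpin in the summed serpin RPKM of each library, in percent, for 7 genes and the remaining members together. The red block (SERPING1) averages 32.5% in DOX-negative and 13.2% in DOX-positive libraries, and the dark green block (SERPINB1) is the tallest in the DOX-positive ones.

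Per gene length, the order of the levels in DOX-negative cells began with SERPING1 (39.8 ± 1.54 RPKM), SERPINB1 (26.0 ± 1.07), SERPINA1 (18.2 ± 1.17) and SERPINB9 (17.5 ± 0.367), where SERPINA1 and SERPINB9 overlapped between libraries. SERPINB6 (7.03 ± 0.146), SERPINB8 (6.14 ± 0.148), SERPINI1 (2.46 ± 0.192), SERPINE2 (2.15 ± 0.0914) and SERPINB5 (1.08 ± 0.0329) followed without overlap between neighbours. In DOX-positive cells SERPINB1 led at 45.5 ± 1.62 RPKM. SERPINA1 (15.04 ± 0.573) and SERPING1 (14.9 ± 0.729) overlapped in the places after it, ahead of SERPINB9 (11.1 ± 0.218) and SERPINB6 (10.0 ± 0.147). SERPINB7, the lowest in DOX-negative cells of the 12 serpins with a mean of at least 1 CPM, overlapped SERPINB5 in DOX-positive cells. The deposited length of SERPINB6, 13201 bases, is the longest among the members, which lowers its value on this scale.

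**Figure D3:**
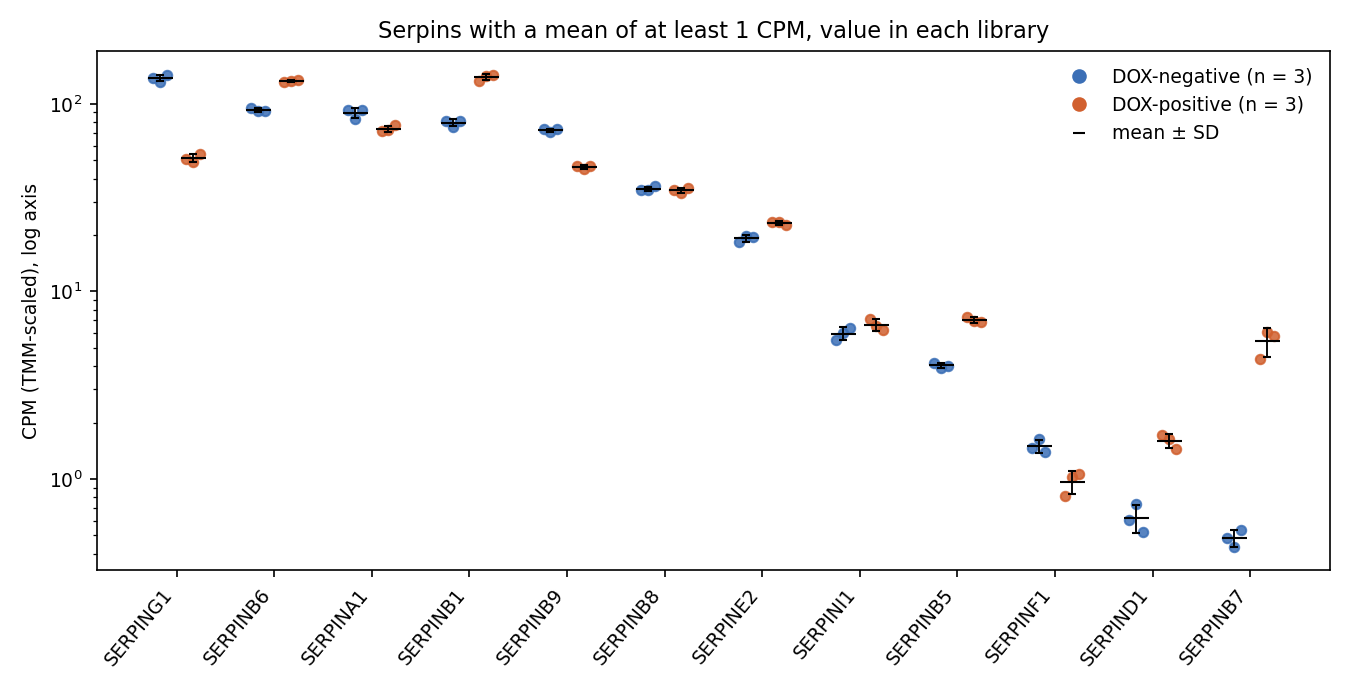
CPM of the 12 serpins with a mean of at least 1 CPM, on a log axis, with 1 point per library and the mean ± SD of each group. Blue points are DOX-negative and orange points DOX-positive libraries. The groups lie apart for each gene but SERPINB8 and SERPINI1.

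The chromosome 6 serpins are intracellular inhibitors of leukocyte and granule proteases. SERPINB1, SERPINB9 and SERPINB6 lie in that order within 139.8 kb (chromosome 6, 2832332 to 2972165, GRCh38, all on the minus strand). SERPINB1 (ENSG00000021355.13), an inhibitor of neutrophil elastase and cathepsin G, read 81.0, 75.6 and 81.4 CPM without DOX and 133.1, 141.2 and 142.0 CPM with it. Every DOX-positive value was above every DOX-negative one, with a log2 fold change of 0.81 ± 0.04 (SE) and an edgeR adjusted p of 2.12e-11. SERPINB6 (ENSG00000124570.20), a cathepsin G inhibitor, read 94.9, 92.0 and 91.3 CPM against 130.7, 132.8 and 134.5 CPM. It was also higher in each DOX-positive library, by 0.52 ± 0.03 (SE) on the log2 scale, at an edgeR adjusted p of 6.51e-10. SERPINB9 (ENSG00000170542.6), which protects cells from granzyme B, lies between them and went the other way, with 73.1, 70.6 and 73.3 CPM in DOX-negative and 46.6, 45.0 and 46.6 CPM in DOX-positive libraries. Its groups did not overlap and its log2 fold change was -0.65 ± 0.03 (SE) with an edgeR adjusted p of 2.88e-11.

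Upstream sequences of these neighbours are shown because SERPINB1 rose and the adjacent SERPINB9 fell, and 250 bases before the RefSeq start (GRCh38.p14) are printed for SERPINB1 and SERPINB9, 5′ to 3′ along the gene. Capitals mark a match to TTCNNNGAA, the core of the GAS element, a promoter element of IFN-gamma responses. It reads the same on both strands.
SERPINB1, chr6:2841864-2842113, minus strand: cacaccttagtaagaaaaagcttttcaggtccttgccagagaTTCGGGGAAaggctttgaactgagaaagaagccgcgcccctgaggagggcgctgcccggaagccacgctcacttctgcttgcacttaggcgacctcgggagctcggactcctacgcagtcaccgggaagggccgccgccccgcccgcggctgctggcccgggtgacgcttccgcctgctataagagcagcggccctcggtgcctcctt
SERPINB9, chr6:2903310-2903559, minus strand: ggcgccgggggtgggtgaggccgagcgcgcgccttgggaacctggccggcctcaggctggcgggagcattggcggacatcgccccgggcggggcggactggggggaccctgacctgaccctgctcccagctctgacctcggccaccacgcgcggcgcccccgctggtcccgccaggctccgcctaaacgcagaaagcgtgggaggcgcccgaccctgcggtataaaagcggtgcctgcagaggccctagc
SERPINB1 holds 1 GAS match, TTCGGGGAA, whose first base lies 208 bases before the start. SERPINB9 holds none of the 3 motifs searched in its 300-base window, and neither do the 4 windows of SERPINB6.

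The chromosome 18 cluster held 10 clade B genes within 543.0 kb (63476761 to 64019779), of which 3 were tested. They sit at its ends and in its middle, with SERPINB5 first, SERPINB7 in the middle and SERPINB8 last. SERPINB7 (megsin, ENSG00000166396.13, 63752935 to 63805376, plus strand) read 0.483, 0.436 and 0.535 CPM in DOX-negative and 4.34, 6.11 and 5.81 CPM in DOX-positive libraries. This was the largest change of the 17 serpins tested, with a log2 fold change of 3.50 ± 0.16 (SE) and an edgeR adjusted p of 1.46e-11 and no overlap between the groups. It rested on 48, 64 and 49 reads against 458, 883 and 576 reads. SERPINB5 (maspin, ENSG00000206075.14, 63476761 to 63505085, plus strand), an epithelial gene known as a tumour suppressor, read 4.16, 3.92 and 3.997 CPM against 7.32, 6.96 and 6.89 CPM. All its DOX-positive values were higher, by 0.81 ± 0.08 (SE) on the log2 scale, at an edgeR adjusted p of 1.59e-07. SERPINB8 (ENSG00000166401.15, 63969925 to 64019779, plus strand), which can inhibit furin, read 34.8, 34.9 and 36.4 CPM against 34.6, 33.4 and 35.6 CPM. Its groups overlapped, with a log2 fold change of -0.03 (95% interval -0.11 to 0.04, edgeR adjusted p = 0.447). It was called lower with libraries scaled by size alone (-0.18, adjusted p = 0.00032) and with upper-quartile scaling (-0.09, adjusted p = 0.0300). HMSD overlaps SERPINB8 on the same strand, so reads could have been shared between them. The same holds for SERPINB5, which AC036176.3 and ATP5MC1P6 overlap on its strand.

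The other 7 genes of the cluster were not tested. SERPINB10, SERPINB11 and SERPINB12 had 0 reads in each library, which allows up to 3 reads, or between 0.0199 and 0.0342 CPM per library, by counting error alone. SERPINB13 and SERPINB4 had at most 2 reads and SERPINB3 at most 4 in any library. SERPINB3 and SERPINB4, the squamous cell carcinoma antigens, are nearly identical, so their few reads are uncertain. SERPINB2, which encodes plasminogen activator inhibitor 2, had 0 reads in the 3 DOX-negative libraries and 2, 16 and 2 reads in the DOX-positive ones, too few to enter the test. SERPINB10 overlaps SERPINB2 on the same strand, and how reads of the shared stretch were assigned is not known.

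**Figure D4:**
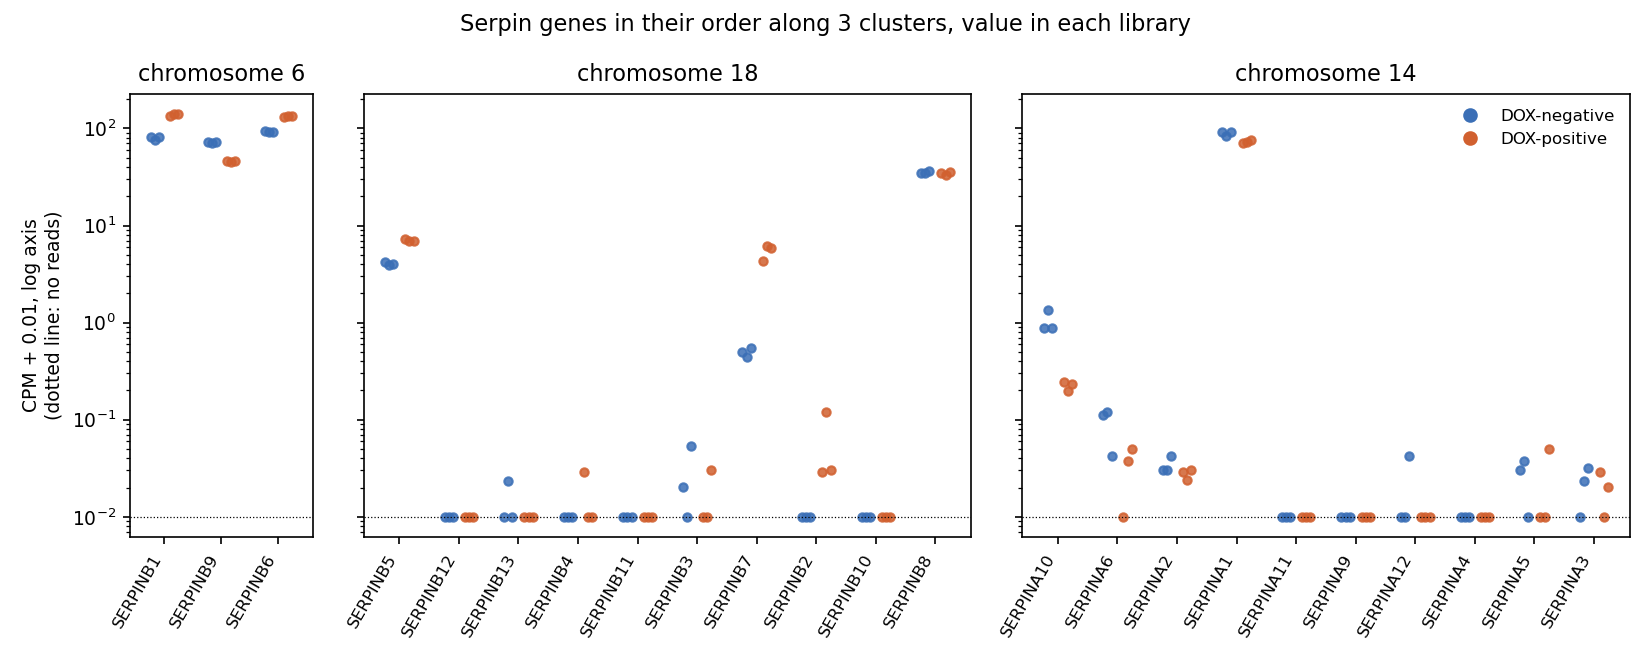
CPM + 0.01 on a log axis for the serpins of 3 clusters, in their order along chromosomes 6, 18 and 14, with 1 point per library. Points on the dotted line are libraries with no reads. All 3 genes on chromosome 6 but only 3 of 10 on chromosome 18 and 2 of 10 on chromosome 14 were tested.

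For the 3 tested genes of chromosome 18 the upstream 250 bases are shown, to set the strongly raised SERPINB7 beside the modestly raised SERPINB5 and the uncalled SERPINB8. Capitals mark matches to TGANTCA, the site of the AP-1 factors FOS and JUN, or to the GAS core. RefSeq gives 3 starts for SERPINB7, and counts per gene do not show which were used.
SERPINB7, chr18:63752807-63753056, plus strand: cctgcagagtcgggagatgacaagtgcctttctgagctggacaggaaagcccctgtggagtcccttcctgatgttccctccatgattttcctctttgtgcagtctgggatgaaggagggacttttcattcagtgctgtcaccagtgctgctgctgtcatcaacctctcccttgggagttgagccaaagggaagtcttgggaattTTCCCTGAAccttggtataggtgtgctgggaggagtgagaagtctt
SERPINB7, chr18:63775168-63775417, plus strand: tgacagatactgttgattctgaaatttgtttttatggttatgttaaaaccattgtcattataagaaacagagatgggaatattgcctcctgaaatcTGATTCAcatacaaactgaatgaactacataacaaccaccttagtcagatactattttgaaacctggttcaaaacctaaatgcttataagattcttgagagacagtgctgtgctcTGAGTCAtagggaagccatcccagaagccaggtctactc
SERPINB7, chr18:63777531-63777780, plus strand: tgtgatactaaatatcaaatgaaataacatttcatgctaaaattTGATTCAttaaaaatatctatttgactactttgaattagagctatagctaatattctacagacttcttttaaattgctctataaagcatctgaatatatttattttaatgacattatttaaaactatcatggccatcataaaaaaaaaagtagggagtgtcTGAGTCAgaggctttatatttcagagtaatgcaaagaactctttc
SERPINB5, chr18:63476708-63476957, plus strand: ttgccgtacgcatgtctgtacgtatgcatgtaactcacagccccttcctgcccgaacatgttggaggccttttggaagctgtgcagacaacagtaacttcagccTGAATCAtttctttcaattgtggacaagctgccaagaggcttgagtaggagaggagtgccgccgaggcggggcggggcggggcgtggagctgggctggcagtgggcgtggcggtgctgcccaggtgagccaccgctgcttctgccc
SERPINB8, chr18:63969831-63970080, plus strand: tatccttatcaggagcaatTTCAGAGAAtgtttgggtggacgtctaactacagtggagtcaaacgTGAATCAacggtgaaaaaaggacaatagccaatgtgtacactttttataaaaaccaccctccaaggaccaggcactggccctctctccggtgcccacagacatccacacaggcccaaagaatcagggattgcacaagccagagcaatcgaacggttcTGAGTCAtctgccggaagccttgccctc
The first SERPINB7 window holds the GAS match TTCCCTGAA, 46 bases before the start. Each of the other two holds the AP-1 matches TGATTCA and TGAGTCA, and the latter begins 39 and 45 bases before the respective start. SERPINB5 holds the AP-1 match TGAATCA. SERPINB8, which was not called, holds 2 AP-1 matches and 1 GAS match.

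Across the family, RefSeq windows of 250 bases before to 50 after a start were found for 26 of the 34 members, in 39 windows. SERPINA2, SERPINB10, SERPINB11, SERPINC1, SERPINF1, SERPINF2 and SERPING1 were among those without an entry. The AP-1 motif was found in 8 of the 26 members (30.8%) and in 9.37% of 27305 genes with a window, and the GAS motif in 9 of 26 (34.6%) and in 9.38%. By window the counts were 9 of 39 for each, against 7.71% and 7.66% of 35116 windows. The members with an AP-1 match include SERPINB2, SERPINB5, SERPINB7, SERPINB8, SERPINB12 and SERPINB13. These share the chromosome 18 cluster, so they may not be independent, and the difference in shares was not tested. The core of the interferon-stimulated response element, GAAA followed after 2 bases by GAAA and searched on both strands, was found in 1 of the 26 members, SERPINB12, and in 4.38% of genes. No matches to different motifs overlapped in these windows. The members with a GAS or AP-1 match include untested ones, such as SERPINA5, SERPINA6, SERPINB2, SERPINB12 and SERPINI2. Of the called members, SERPINB1, SERPINB5, SERPINB7, SERPIND1 and SERPINE3 held a match. SERPINA1, SERPINA10, SERPINB6, SERPINB9 and SERPINE2, also called, held none in any window. A match is a run of letters and not a measured binding site.

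SERPING1 (ENSG00000149131.16, chromosome 11, 57597387 to 57614853), the C1 inhibitor that blocks C1r and C1s and a gene known to be induced by IFN-gamma, read 138.1, 131.4 and 141.9 CPM in DOX-negative and 51.0, 49.2 and 54.2 CPM in DOX-positive libraries. All DOX-positive values were below all DOX-negative ones, with a log2 fold change of -1.41 ± 0.04 (SE) and an edgeR adjusted p of 4.55e-14. SERPINA1 (ENSG00000197249.14, chromosome 14, 94376747 to 94390693), alpha-1-antitrypsin, read 92.9, 82.8 and 92.6 CPM against 71.4, 72.9 and 76.9 CPM. The groups lay close but did not overlap, and the log2 fold change was -0.28 ± 0.04 (SE) with an edgeR adjusted p of 3.8e-05.

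The other clade A gene that passed the filter was SERPINA10 (ENSG00000140093.10), an inhibitor of coagulation factor Xa that depends on protein Z. It read 0.865, 1.34 and 0.863 CPM against 0.237, 0.187 and 0.222 CPM. Its log2 fold change was -2.27 ± 0.25 (SE) with an edgeR adjusted p of 8.09e-07, from between 22 and 197 reads. The remaining 8 serpins of the chromosome 14 cluster and SERPINA7, which encodes thyroxine-binding globulin on chromosome X, were not tested. SERPINA4, SERPINA7, SERPINA9 and SERPINA11 had 0 reads in each library. SERPINA4 overlaps SERPINA5 on the same strand, and how reads of the shared stretch were assigned is not known. SERPINA6, which encodes corticosteroid-binding globulin, had 10, 16 and 3 reads in DOX-negative and 0, 4 and 4 in DOX-positive libraries. SERPINA2, SERPINA3, SERPINA5 and SERPINA12 had at most 4 reads in any library, although SERPINA3, alpha-1-antichymotrypsin, is a gene of the acute-phase response.

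SERPIND1 (heparin cofactor II, ENSG00000099937.11), an inhibitor of thrombin, read 0.603, 0.736 and 0.524 CPM in DOX-negative and 1.73, 1.63 and 1.45 CPM in DOX-positive libraries. It was higher in each DOX-positive library, with a log2 fold change of 1.35 ± 0.18 (SE) and an edgeR adjusted p of 5.44e-06. SERPIND1 lies within PI4KA, which runs on the opposite strand, and the strand setting of the counting is not given in the sources used here, so its reads are uncertain. SERPINE2 (protease nexin 1, ENSG00000135919.13), a cell-bound inhibitor of thrombin and urokinase, read 18.3, 19.8 and 19.6 CPM against 23.6, 23.4 and 22.5 CPM. The rise was small but the groups did not overlap, with a log2 fold change of 0.27 ± 0.04 (SE) and an edgeR adjusted p of 7.72e-05. SERPINC1 (antithrombin, ENSG00000117601.13) had 21, 36 and 13 reads against 7, 8 and 16, and its groups overlapped. Its log2 fold change was -1.14 (95% interval -2.14 to -0.13 before adjustment), and it missed the threshold at an edgeR adjusted p of 0.0508. It was called lower in 6 of the 14 alternatives that tested it, among them those without DOX-negative replicate 3 (adjusted p = 0.0458) and without DOX-positive replicate 3 (-1.72, adjusted p = 0.0136), in a range of 0.0136 to 0.205.

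SERPINI1 (neuroserpin, ENSG00000163536.12), an inhibitor of tissue plasminogen activator, read 5.49, 5.97 and 6.42 CPM in DOX-negative and 7.15, 6.54 and 6.19 CPM in DOX-positive libraries. The groups overlapped, with a log2 fold change of 0.15 (95% interval -0.02 to 0.33, edgeR adjusted p = 0.130). Without DOX-negative replicate 3 SERPINI1 was called higher (0.23, adjusted p = 0.0447). SERPINF2 (alpha-2-antiplasmin, ENSG00000167711.13) had 17, 28 and 28 reads against 6, 6 and 8, so that it passed the filter through the DOX-negative libraries alone, with a log2 fold change of -1.90 ± 0.47 (SE) and an edgeR adjusted p of 0.00235. Its neighbour SERPINF1 on chromosome 17 (ENSG00000132386.11), a factor that restrains blood vessel growth, read 1.47, 1.63 and 1.40 CPM against 0.815, 1.02 and 1.06 CPM. Both clade F genes were thus lower in every DOX-positive library, SERPINF1 with a log2 fold change of -0.63 ± 0.16 (SE) and an edgeR adjusted p of 0.00331. SERPINE3 (ENSG00000253309.6) read 0.704, 0.633 and 0.535 CPM against 0.275, 0.214 and 0.182 CPM, a log2 fold change of -1.48 ± 0.26 (SE) and an edgeR adjusted p of 0.000139. It overlaps INTS6 on the opposite strand, so its reads are uncertain. SERPINI2 had at most 6 reads in any library and was not tested.

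The partners of the serpins were described from 3 lists. The first held 53 serpin-inhibited proteases and related genes, so not every member is a serpin target. Of these, 30 were tested, 7 rose and 14 fell (median log2 fold change -0.29). This stands beside 27.6% called higher and 28.9% lower among all genes tested, with a median of -0.04. Among the falls of this list, KLK1 (16 to 32 reads in DOX-negative and 4 to 8 in DOX-positive libraries, named for this after its values were seen) passed the filter through the DOX-negative libraries alone. C1S and C1R, the complement proteases that SERPING1 blocks, fell with it, from 56.6 ± 2.31 to 14.6 ± 0.609 CPM and from 40.3 ± 0.736 to 13.2 ± 1.11 CPM (SD, n = 3 each). EMG1 overlaps C1S and C1RL overlaps C1R on the same strand, so reads could have been shared there too. CASP1, the inflammasome caspase, fell 2.59-fold and HTRA1, a secreted serine protease, fell by 0.59 on the log2 scale. F3, which encodes tissue factor, the receptor that starts coagulation, rose 3.42-fold from 82.0 ± 2.85 to 280.1 ± 4.12 CPM. ST14, the epithelial membrane protease matriptase, rose 3.07-fold from 15.2 ± 0.878 to 46.8 ± 2.13 CPM. PLAU, the urokinase that SERPINB2 inhibits, rose from 558.2 ± 22.0 to 752.7 ± 1.10 CPM, and CTSL, the lysosomal cathepsin L, rose 1.28-fold. F3 and ST14 moved by more than the other 2, and each of the 4 was higher in every DOX-positive library. The other tested cathepsins of the list, named after their values were seen, went both ways. CTSB rose 1.26-fold, while CTSS (1.52-fold), CTSK (1.35-fold), CTSH (1.26-fold) and CTSV (1.18-fold) fell.

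Of 16 clearance receptors and cofactors, all were tested, 8 rose and 7 fell (median log2 fold change 0.08), beside the same 27.6% and 28.9% of all genes. LRP1, the main receptor for serpin and protease complexes, fell 1.74-fold from 280.7 ± 9.70 to 161.6 ± 5.94 CPM. Its relatives LRP8 and VLDLR fell 2.04-fold and 1.28-fold, and F2R, the thrombin receptor, 1.90-fold. SDC4 and SDC1, syndecans whose heparan sulfate binds several serpins, rose 1.74-fold and 1.32-fold, PLAUR, the urokinase receptor, 1.51-fold, and THBD, the thrombin-binding thrombomodulin, 1.52-fold. With libraries scaled by size alone the median of this list turned to -0.06, and without DOX-positive replicate 3 to -0.01.

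Of 36 protease inhibitors of other families, 27 were tested, 15 rose and 7 fell (median log2 fold change 0.29), again beside 27.6% and 28.9% of all genes. These counts include genes that passed the filter through 1 group alone, named after their values were seen. SPINK1 (2 to 8 reads in DOX-negative and 216 to 266 in DOX-positive libraries) and CSTA (2 to 6 and 14 in each) are among the rises, and ITIH5 (16 to 30 and 0 to 8) among the falls, and their differences were partly set by the filter. SPINT1, the Kunitz inhibitor of matriptase, rose 2.64-fold from 43.8 ± 1.21 to 115.8 ± 1.23 CPM, beside the rise of ST14. CST6, which encodes cystatin M/E, rose 2.59-fold, PEBP1, a kinase and protease inhibitor, 1.76-fold, and CAST, the calpain inhibitor calpastatin, 1.72-fold. The falls included RECK (1.42-fold) and TIMP2 (1.20-fold), inhibitors of matrix metalloproteinases, SPINK5 (1.57-fold), a Kazal inhibitor of kallikreins, and KAZALD1 (1.23-fold), which carries a Kazal domain. TIMP1, a further metalloproteinase inhibitor of the list, went the other way and rose 1.36-fold (named after its values were seen). The list median was 0.16 without DOX-negative replicate 2, and leaving out DOX-positive replicate 1 gave 0.17. All these changes passed an edgeR adjusted p under 0.05.

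**Figure D5:**
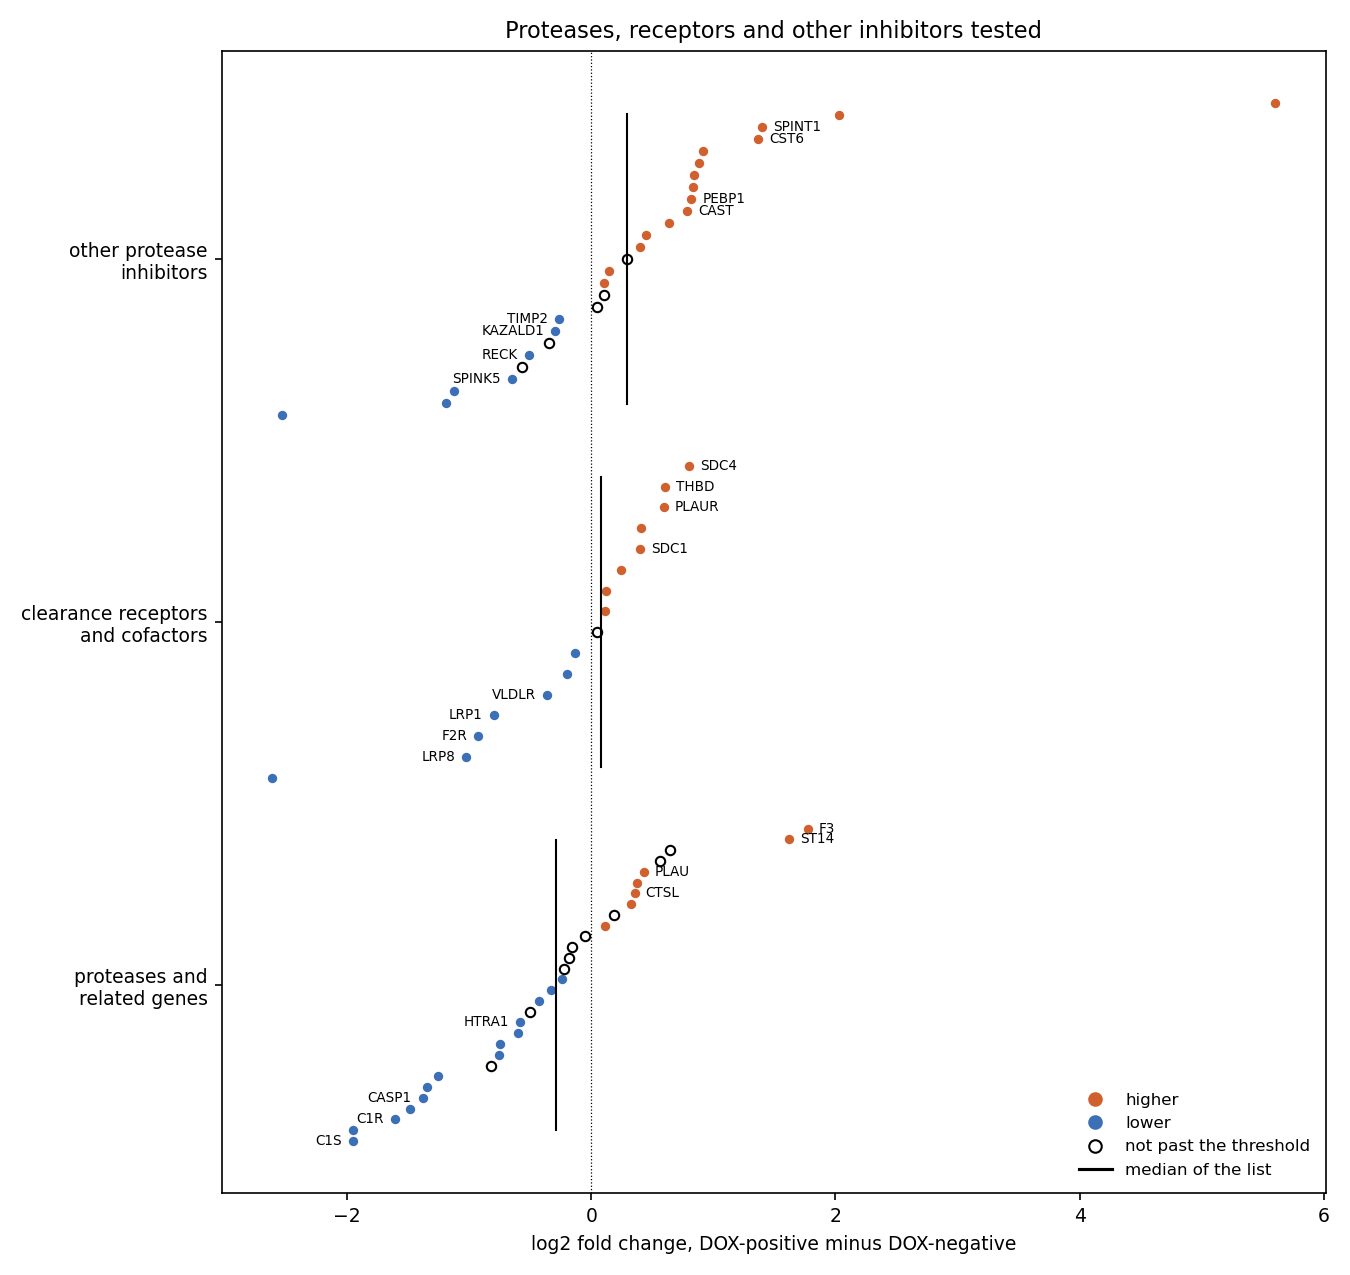
Log2 fold change, DOX-positive minus DOX-negative, of each tested gene in the 3 partner lists. Orange points were called higher, blue points lower, open points did not pass, and black bars are list medians (-0.29, 0.08 and 0.29). Named points are up to 4 genes per direction with the smallest p-values and a mean of at least 1 CPM.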

How the data were processed

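Per the labels' protocols, the libraries were strand-specific and made from polyadenylated RNA. The authors deposited raw read counts as whole numbers, with a length for each gene. CASAVA 1.8.2, STAR 2.7.9a, DESeq2 1.24.0 and GRCh38.p7 appear in the submitters' processing notes, with no role for any. How reads were counted, on which strand and with which annotation is not given in the sources used here.

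Groups follow the sample titles. The counts were fitted in edgeR 4.0.16 (R 4.3.3) by quasi-likelihood on group alone, with TMM scaling and filterByExpr defaults (minimum count 10, total 15), and p-values were adjusted (Benjamini-Hochberg) over 24695 genes, with 0.05 as the threshold. SE is the absolute log2 fold change over the root of F. The code was tested on simulated counts. Rows with no symbol (66, or 0.000516% of reads) were kept. GENCODE 29 (GRCh38) gave positions, by unversioned ID, for all 34 members, and RefSeq (GRCh38.p14) the promoter windows.

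Members and lists were chosen with earlier results of these data known. Serpins averaging at least 1 CPM are given per library, the remainder by their values or reads, and partner genes as up to 4 called genes per direction of at least 1 CPM with the smallest p. Alternatives were 3 other scalings, 3 other filters, DESeq2 1.42.0, limma-voom (limma 3.58.1), a replicate block and leaving out each library. Values of 1 tested member are not reported here by name. Figures used matplotlib 3.10.9.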

Additional observations from a re-analysis of the deposited data

How the results depend on the processing

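The 13 serpin calls kept their direction and stayed past the threshold in all 192 combinations of gene and alternative in which they were tested. SERPINB8, SERPINC1 and SERPINI1 gained a call in 2, 6 and 1 alternatives. SERPINA10, SERPINC1, SERPINE3 and SERPINF2 were among those not tested with at least 1 CPM required in 3 libraries. Under that filter the medians were 0.012 for all genes, 0.17 for serpins, -0.099 for the other clades and 0.41 for other inhibitors, and falls numbered 4 for serpins, 3 for the other clades (5 called in all), 9 for proteases and 4 for other inhibitors, since fewer genes were tested. Without a filter the medians were -0.12 for all genes, -0.37 for serpins and 0.14 for other inhibitors. With library size alone the medians were -0.18 for all genes, -0.18 for serpins, 0.52 for clade B, 0.37 and 0.67 for its chromosome 6 and 18 genes, -0.43 for proteases, -0.062 (turned in sign) for receptors and 0.15 for other inhibitors, and SERPINB8 made the falls 2 in clade B and 1 on chromosome 18, since the whole scale moved down. With upper-quartile scaling the medians were -0.10 for all genes, 0.60 for clade B and 0.021 for receptors, and the falls were again 2 and 1. Leaving out 1 library gave medians from -0.17 to -0.023 for serpins, -1.02 to -0.57 for the other clades, -0.014 to 0.12 for receptors and 0.16 to 0.38 for other inhibitors. The lowest values of the first 3 came without DOX-positive replicate 3. These causes were not tested except where stated.

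Same-numbered libraries did not deviate together (correlations of -0.067, -0.025 and 0.0099 for numbers 1, 2 and 3), and not every library correlated best with its own number, so the number was not taken as a pairing. With the replicate block 13502 of all genes were called, and the serpins gave 6 rises and 7 falls. The 17 untested serpins had at most 16 reads in any library, and 7 of them had 0 reads in all libraries, where a count of 0 allows up to 3 reads. Whether more depth would bring them into the test was not tested.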

Other observations

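Genes related to the serpins but outside the family as defined were looked up after the members' values were seen. SERPINH1, the collagen chaperone, fell 1.71-fold, from 96.8 ± 0.912 to 56.6 ± 2.26 CPM (SD, n = 3 each, edgeR adjusted p = 8.44e-12). SERPINB9P1, which GENCODE 29 types as a lincRNA and which lies between SERPINB1 and SERPINB9 on chromosome 6 (2854657 to 2881407), fell 1.65-fold from 3.75 ± 0.430 to 2.27 ± 0.241 CPM (edgeR adjusted p = 0.000109), in the direction of SERPINB9. HMSD, a serpin-domain gene that overlaps the start of SERPINB8 on chromosome 18 (63949301 to 63981774), rose 1.98-fold from 1.88 ± 0.0781 to 3.73 ± 0.278 CPM (edgeR adjusted p = 1.3e-06), while SERPINB8 was not called. The counts do not show how reads of the shared stretch were assigned. AGT, which encodes angiotensinogen, a serpin by fold with another symbol, had between 0 and 18 reads and was not tested.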
